A study of Homo sapiens with 3 samples.

Results

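Of 40843 editing clusters that were called in cells expressing the RBFOX2-APOBEC1 fusion, 769 spanned 150 bases or more and are called long clusters here. They were selected on a measured value, the distance from the start to the end of a cluster, so their length and everything that follows from it is a description and was not tested. Replicates 1, 2 and 3 held 271, 291 and 207 long clusters among 14295, 15181 and 11367 clusters. These are 1.90%, 1.92% and 1.82% of the clusters, with 95% Wilson intervals of 1.69% to 2.13%, 1.71% to 2.15% and 1.59% to 2.08% for counting error alone, as reads from PCR carry no molecular identifier and may be copies. The remaining 40074 clusters, under 150 bases, are called shorter clusters.

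The study tested FLARE, a workflow that finds stretches of RNA with more edits than a background rate, on RNA from human embryonic kidney cells, which the titles call HEK293T and the source labels HEK293XT, a lenti-X derivative of that line. All 3 replicates were of wild-type genotype and were given doxycycline for 72 h to induce the fusion, and the labels name transient transfection as the treatment although they also describe stable lines. There was a single condition and no sample without the fusion was analysed here, so editing by the fusion and by APOBEC1 alone cannot be told apart. The study calls the replicates biological without saying how the cultures were kept apart, and the clusters carry no values for marker genes of the cell line, so its identity was not checked.

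In STAMP, an RNA-binding protein is joined to the cytidine deaminase APOBEC1, which turns C into U in RNA close to where the protein sits. RBFOX2, the protein used here, binds GCAUG motifs and is best known as a regulator of alternative splicing, and it also binds the 3′ untranslated regions of mRNAs. FLARE counts edits in windows of 30 bases, keeps windows above the background and joins those that lie within 15 bases of each other, so a cluster is long where many neighbouring windows passed. The deposited labels number the exon and intron segments of each gene, and a cluster is named by its gene and segment. Sequences of the clusters are not shown because a genome of build hg19, which the submitters' processing notes name, was not used here.

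The median long cluster was 165 bases in each replicate, against 45 bases for shorter clusters, and the longest of each replicate had 570, 480 and 420 bases. Only 12, 20 and 9 clusters reached 300 bases. Nearly all lengths, 98.3% ± 0.859 (SD, n = 3), were multiples of 15. Just inside the limit, 89, 94 and 73 clusters had exactly 150 bases. Just outside it, 147, 142 and 102 clusters had 135 to 149 bases. At 135 to 149 bases the median read depth was 44.9 ± 4.73 and the median edit fraction 1.5% ± 0.204, and at 150 bases they were 55.6 ± 3.21 and 1.19% ± 0.148 (SD, n = 3).

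Long clusters carried a larger share of the edits than of the length, and a smaller one than of the covered C bases. They held 6.66%, 6.93% and 6.45% of all clustered bases and 12.5%, 11.8% and 10.3% of the edited bases. Their share of the C bases covered by reads was 15.2%, 13.0% and 11.6%, above their share of edited bases in each replicate. Their share of the edited reads was 10.7%, 9.99% and 8.41%, and their share of all reads 7.60%, 6.24% and 5.96%. No long cluster rested on 1 edited read. The fewest edited reads of a long cluster were 2 in each replicate, whereas 31.3% ± 2.58 of shorter clusters had a single edited read.

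**Figure D1:**
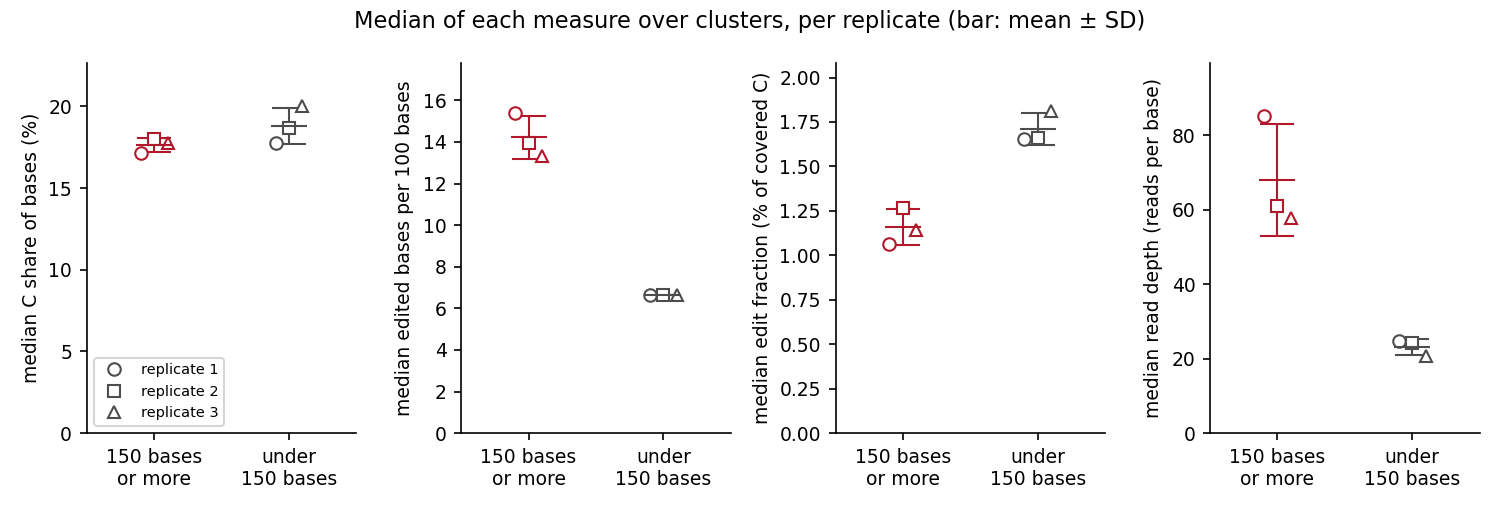
Median C share of bases, edited bases per 100 bases of cluster, edit fraction in percent of covered C and read depth in reads per base, for clusters of 150 bases or more (red) and under 150 bases (grey). Circles, squares and triangles are replicates 1, 2 and 3, and bars are the mean ± SD; long clusters lie above shorter ones in edited bases and depth and below them in edit fraction in every replicate.

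The C content of long clusters differed little from that of shorter ones. The median share of C among the bases was 17.1%, 18.0% and 17.8% in long clusters of replicates 1, 2 and 3 and 17.8%, 18.7% and 20% in shorter ones. The difference of the means, 17.6% ± 0.445 against 18.8% ± 1.12 (SD, n = 3), is about as large as the spread between replicates, although long clusters were lower in 3 of 3. The share varied less among long clusters, with quartiles of 15.1% and 21.8% against 13.3% and 24.3% (means of 3 replicates). A share over more bases varies less, and the median number of C bases was 31.7 in long and 9 in shorter clusters. The part of length in this narrower range was not tested. The extremes among long clusters of all replicates were 7.33% in RAB6A, a regulator of vesicle transport at the Golgi, and 51.8% in POLR2A, the largest subunit of RNA polymerase II.

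Edits were denser in long clusters, although depth enters this measure. Counted over all reads, a long cluster had a median of 15.4, 13.9 and 13.3 edited bases per 100 bases of its length in replicates 1, 2 and 3, against 6.67 in shorter clusters of each replicate. At a depth of 10 to 20 it was 8.20 ± 0.292 in long clusters and 6.67 in shorter ones. At 30 to 40 it was 9.56 ± 1.08 against 8.49 ± 0.691, without a difference in replicate 3. At 50 or more it was 20.3 ± 1.49 against 13.2 ± 0.248, and there the median depth still differed, at 124 against 89.8. A median of 13, 11 and 9 reads was edited in a long cluster, against 2 in a shorter one. The median of edited bases per edited read was 2.22 ± 0.127 against 1.61 ± 0.0962, but it did not rise steadily with length. It was 1.04 ± 0.0722 at up to 30 bases and 3 in each replicate at 91 to 120. Above the limit it was 2.39 ± 0.0712 at 150 to 179 bases and 1.89 ± 0.0924 at 240 or more. These values are not independent of the rule, since a long cluster needs edits in several windows.

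Reads were also deeper. The median over clusters of the mean read depth was 85.1, 61.0 and 57.7 reads per base in long clusters and 24.7, 24.2 and 20.7 in shorter ones. A depth of at least 50 was reached by 66.4%, 57.7% and 55.6% of long clusters and by 28.4%, 27.4% and 24.0% of shorter ones. Depth is not scaled to library size, and the libraries are of bulk RNA, in which fewer edited cells and fewer edits per cell cannot be told apart.

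The edit fraction, or edited bases as a share of the C bases covered by reads, was lower in long clusters as a whole and higher at a given depth. The median edit fraction was 1.07%, 1.26% and 1.14% in long clusters and 1.65%, 1.66% and 1.81% in shorter ones. Among clusters with a depth of at least 50 the order turned, with 0.836%, 0.917% and 0.840% in long clusters and 0.770%, 0.787% and 0.780% in shorter ones. At a depth of 10 to 20 the long clusters had 3.13% ± 0.324 and the shorter ones 2.32% ± 0.0867. Long clusters were higher in each replicate in every depth class from 10 upwards, and in 1 of 3 replicates below a depth of 10, where only 6 to 8 long clusters per replicate were found. Across the long clusters of a replicate, Spearman's rho of depth and edit fraction was -0.780, -0.775 and -0.808 (271, 291 and 207 clusters), and covered reads enter both measures.

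The share of reads with an edit was higher in long clusters at every depth. For depths of 50 or more the median was 5.34% ± 0.373 against 2.59% ± 0.0560 in shorter clusters (SD, n = 3). For depths of 20 to 30 it was 7.85% ± 0.981 against 5.73% ± 0.0317. A longer region lets a read meet more C bases, and the part of length in this difference was not tested.

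**Figure D2:**
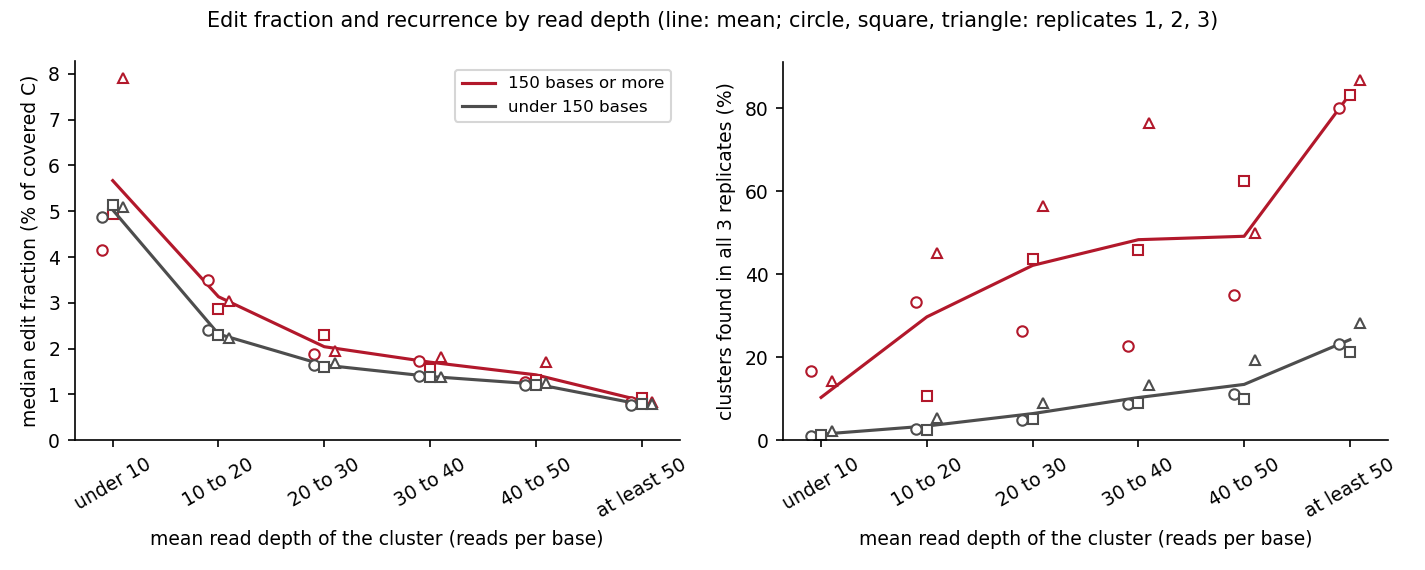
Left, median edit fraction in percent of covered C, and right, percentage of clusters found in all 3 replicates, by the mean read depth of the cluster in reads per base. Red marks long clusters and grey shorter ones, symbols are the replicates and lines the mean; at a depth of at least 50, 83.4% of long and 24.2% of shorter clusters were found in all 3 replicates.

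Whether a long cluster comes back was judged in replicates that took no part in its choice. Its length, which the rule used, still enters an overlap. A cluster was called found in another replicate where a cluster of any length on the same strand shared at least 1 base with it. Of the long clusters, 170 of 271, 186 of 291 and 148 of 207 were found in all 3 replicates, which is 62.7%, 63.9% and 71.5%. Over all clusters the background was 10.6%, 9.86% and 13.1%, and over shorter clusters 9.56%, 8.80% and 12%. The difference between long and shorter clusters was 55.9 percentage points ± 3.23 (SD, n = 3) and had the same sign in 3 of 3 replicates. The two-sided exact paired permutation test over replicates gave p = 0.25, the smallest it can give with 3 replicates. A place with a cluster in each replicate counts in all 3 values, so the values are not independent of each other. At least 1 other replicate held a cluster for 87.1%, 87.6% and 89.9% of long clusters and for 30.2%, 29.2% and 34.6% of shorter ones, with the same exact p of 0.25.

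A longer cluster offers more bases to an overlap. The cluster described was therefore reduced to its central 30 bases and matched to whole clusters of the other replicates. Then 37.1% ± 2.63 of long clusters and 8.98% ± 1.61 of shorter ones were found in all 3 replicates. The length of the counterparts still entered this measure. When 50% or more of both clusters had to overlap, the shares were 19.9% ± 2.47 and 5.02% ± 0.809. Counted by bases, 27.7%, 28.5% and 34.1% of the bases of long clusters were covered by clusters of both other replicates, against 7.35%, 6.79% and 9.56% for shorter clusters. The exact paired test gave p = 0.25 for each of these 3 differences, and long clusters were higher in 3 of 3 replicates each time.

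Recurrence also rose with depth. Below a depth of 10, 10.3% ± 9.01 of long clusters were found in all 3 replicates, over 21 long clusters in all. It rose to 29.7% ± 17.5 for depths of 10 to 20, then 42.1% ± 15.2 for 20 to 30, 48.3% ± 27.0 for 30 to 40 and 49.2% ± 13.8 for 40 to 50. For shorter clusters the means in the same classes were 1.44%, 3.42%, 6.41%, 10.3% and 13.4%. Long clusters with a depth of at least 50 reached 83.4% ± 3.48, and shorter ones 24.2% ± 3.57. The classes between 10 and 50 had 14 to 39 long clusters per replicate. By bases covered in both other replicates, the gap was 3.76% ± 2.49 against 2.06% ± 0.928 at 10 to 20. It was 12.9% ± 2.63 against 9.92% ± 3.70 at 40 to 50, and 42.0% ± 5.22 against 19.7% ± 3.70 at 50 or more. By this measure long clusters were higher in 1 of 3 replicates below 10, in 2 of 3 at 30 to 40 and in 3 of 3 in every other class.

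**Figure D3:**
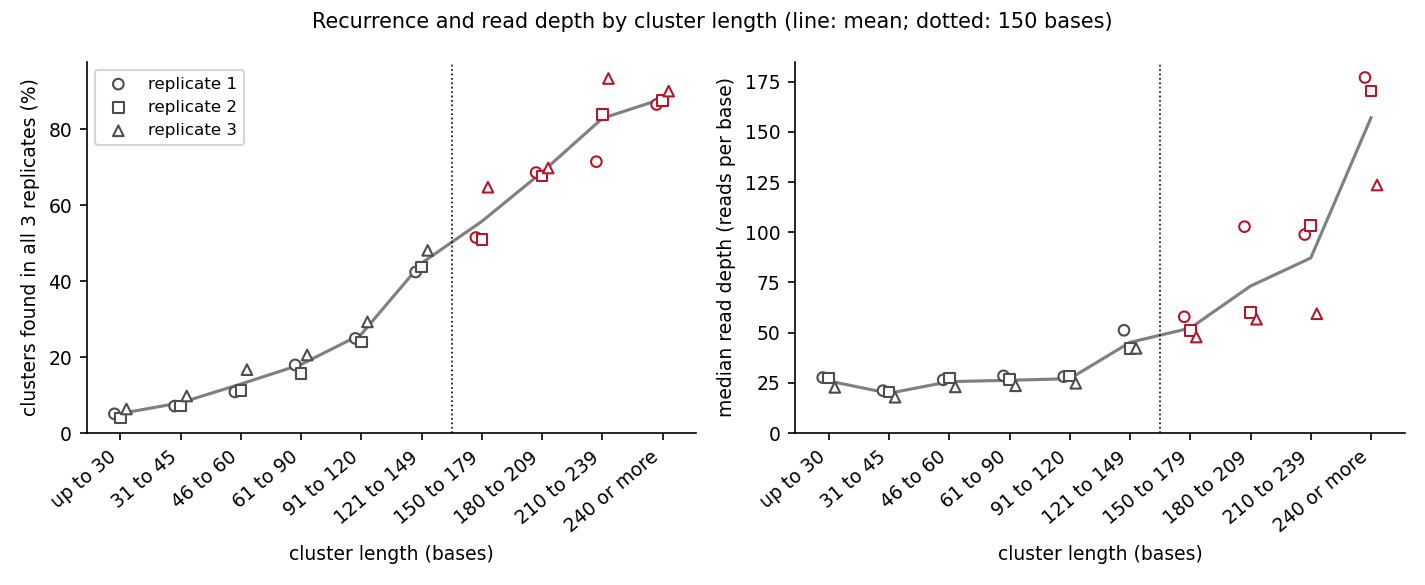
Percentage of clusters found in all 3 replicates (left) and median read depth in reads per base (right) by cluster length in bases; symbols are replicates, the line is their mean and the dotted line marks 150 bases. The share found rose through the whole range, from 5.13% at up to 30 bases to 88.0% at 240 bases or more.

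No step was seen at 150 bases. The share found in all 3 replicates was 44.7% ± 2.97 at 121 to 149 bases, 55.7% ± 7.78 at 150 to 179, 68.7% ± 1.04 at 180 to 209, 82.8% ± 11.0 at 210 to 239 and 88.0% ± 1.81 at 240 or more. Median depth rose over the same classes from 45.2 ± 5.21 to 157 ± 29.2. The median edit fraction fell from 1.48% ± 0.157 at 121 to 149 bases to 0.884% ± 0.0815 at 240 or more.

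In most pairs with another replicate, a long cluster was not long again. For each long cluster and each other replicate, 22.9% ± 3.11 of such pairs held no cluster at the place, 57.2% ± 1.62 held 1 and 19.9% ± 1.62 held 2 or more. Another long cluster was held by 23.5% ± 2.29 of the pairs, against 1.46% ± 0.368 of the pairs of shorter clusters, which offer fewer bases to an overlap. Where there was a counterpart, the longest had a median of 105 bases, and clusters of the other replicate covered a median of 55.8% ± 2.19 of the bases. The edit fraction in the other replicate over that in the replicate described had a median of 1.12, 0.974 and 0.876 for the long clusters of replicates 1, 2 and 3, and of 1.13, 1.02 and 0.849 for shorter clusters. Many pairs enter from both sides, so the mean over replicates does not measure likeness and is not given. In the deposited clusters, the same stretch of RNA was thus often whole in one replicate and broken or trimmed in another.

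Joined where they overlapped on a strand, the long clusters formed 620 loci, of which 509 had a long cluster in 1 replicate, 79 in 2 and 32 in all 3. Of the 509 long clusters at loci of a single replicate, 266 were still found in all 3 replicates by shorter clusters, and 92 were found in no other replicate. These 92 had a median depth of 22.6 and a median of 5 edited reads. Long clusters found in all 3 replicates had a median depth of 104.

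**Figure D4:**
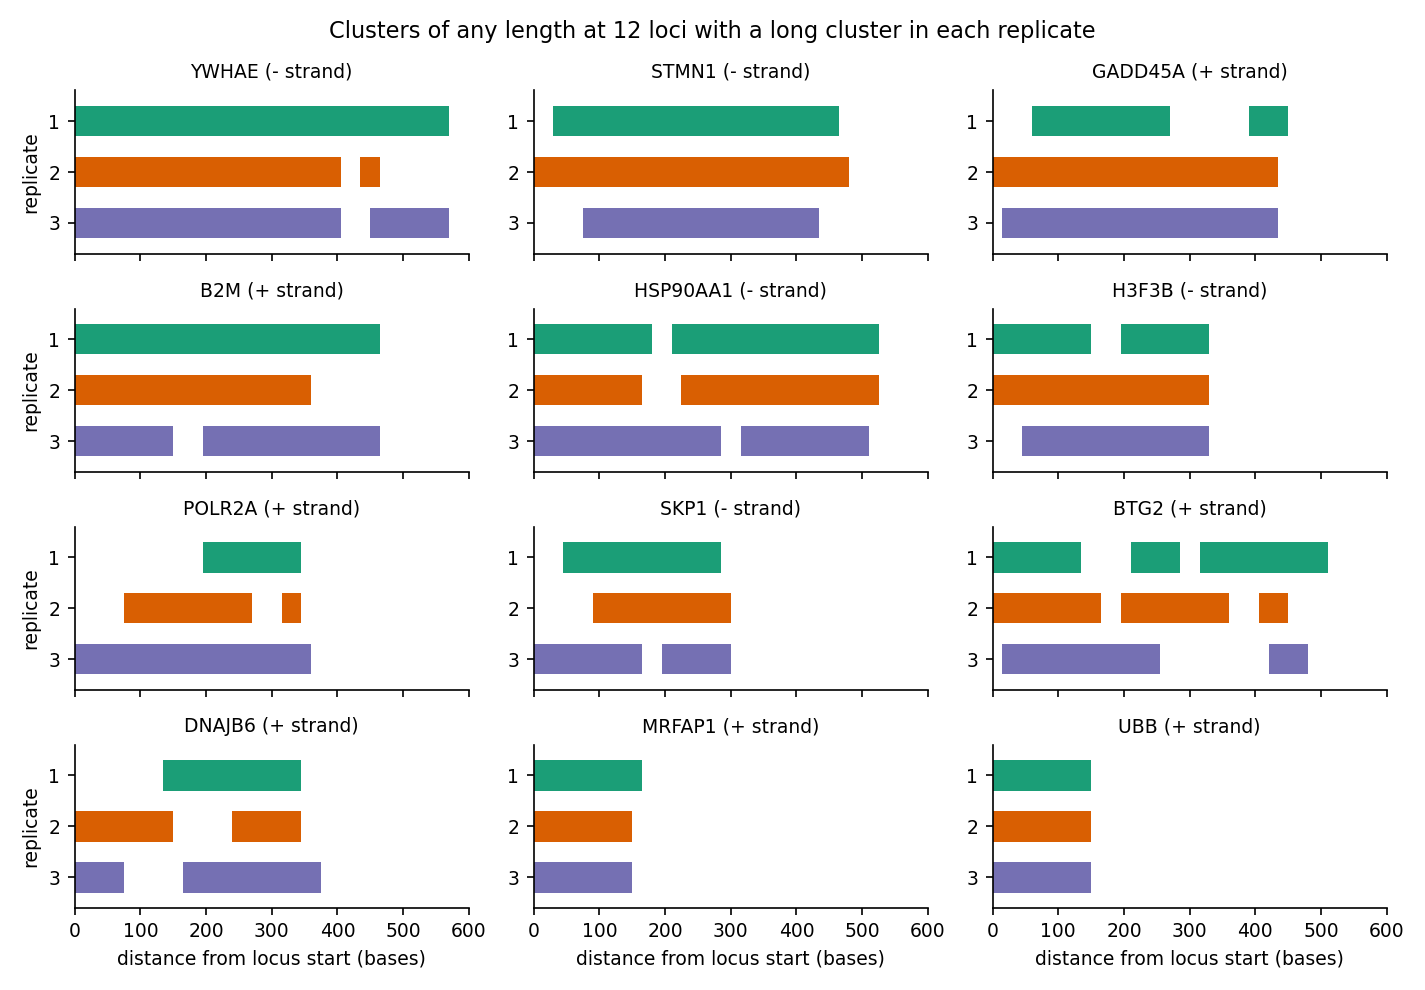
Clusters of any length at 12 of the 32 loci with a long cluster in each replicate, drawn to scale against the distance in bases from the lowest position of the locus, with 1 row per replicate. The UBB clusters had the same 150 bases in all 3 replicates, whereas the long clusters of BTG2 and of DNAJB6 shared no base over all 3.

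The 32 recurrent loci included genes of signalling adaptors, the cytoskeleton, protein folding and protein turnover. The longest was in YWHAE, which encodes the adaptor protein 14-3-3 epsilon, at chr17:1247852-1248421 on the minus strand, in exon segment 0. Its longest cluster had 570, 405 and 405 bases in replicates 1, 2 and 3, and all 3 shared 405 bases. A depth of 922, 955 and 821 reads went with an edit fraction of 0.518%, 0.502% and 0.610%, and 364, 291 and 279 reads were edited. The edit fraction was among the 4 lowest means of the 32 loci.

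STMN1, which encodes the microtubule-destabilising protein stathmin, had clusters of 435, 480 and 360 bases at chr1:26227044-26227523 on the minus strand, in exon segment 6. Their edit fraction was 0.957%, 0.989% and 0.779%. GADD45A, a gene induced by DNA damage, had 210, 435 and 420 bases at chr1:68153345-68153779 with 1.32%, 1.55% and 1.52%. GADD45A and STMN1 held the longest cluster of replicates 3 and 2. They differed in depth, with 387 ± 89.4 reads at STMN1 and 73.0 ± 1.75 at GADD45A (SD, n = 3).

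B2M, the light chain of MHC class I molecules, had a longest cluster of 465, 360 and 270 bases at chr15:45009821-45010285. Its edit fraction was 1.11%, 1.28% and 1.70%. In replicate 3 the stretch was split into 2 long clusters. PEBP1, an inhibitor of RAF kinase, had 225, 345 and 300 bases at an edit fraction of 1.13%, 0.760% and 0.861%. ANXA5, a calcium-dependent binder of phospholipids, had 195, 302 and 330 bases and 1.25%, 1.05% and 0.896%. CALM2 and CALM3, which both encode calmodulin, the calcium sensor, each had a long cluster in every replicate, of 240, 420 and 255 bases in CALM2 and of 150, 240 and 165 bases in CALM3.

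The paired genes MYL12A and MYL12B, which encode myosin regulatory light chains, were both among the 32 loci. MYL12A had 180, 165 and 150 bases and an edit fraction of 1.02%, 0.807% and 0.883%, and MYL12B had 255, 150 and 195 bases and 1.36%, 1.24% and 1.10%. The lowest value of MYL12B lay above the highest of MYL12A. The genes are neighbours on chromosome 18 and similar in sequence, so reads shared between them cannot be separated here.

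HSP90AA1, the stress-inducible form of the chaperone HSP90, was the locus with 2 long clusters in each replicate, at chr14:102547556-102548080 on the minus strand in exon segment 0. The cluster at the lower positions had an edit fraction of 1.07%, 1.17% and 1.16%. The cluster next to it, at higher positions, had 0.654%, 0.690% and 0.617%. The edit fractions did not overlap, with means of 1.13% ± 0.0562 for the first and 0.654% ± 0.0366 for the second (SD, n = 3). Depth showed no common order, with 1042, 608 and 325 reads against 718, 610 and 456. Both lay within 525 bases of 1 exon segment, but their limits differed between replicates. From the locus start, the lower one ran from 0 to 180, 0 to 165 and 0 to 285 bases. The higher one ran from 210 to 525, 225 to 525 and 315 to 510. In replicate 3 the lower cluster thus took in bases that belonged to the higher one in replicates 1 and 2. This pair was singled out after its values were seen, so no test is given.

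Other chaperone genes followed with fewer bases. ST13, a cochaperone of HSP70, had long clusters of 225, 195 and 150 bases at an edit fraction of 0.881%, 3.65% and 2.65% and a depth of 162, 32.2 and 26.5 reads. They covered different stretches, from 105 to 330, 0 to 195 and 60 to 210 bases from the locus start, and shared 90 bases. From 255 bases onwards replicates 2 and 3 had shorter clusters at 0.621% and 0.585%, so the spread between the long clusters is not one between replicates at the same place. DNAJB6, another cochaperone, had 210, 150 and 210 bases and 1.08%, 1.72% and 1.38%. HSP90B1, the HSP90 of the endoplasmic reticulum, had a long cluster of 195 bases at the same place in replicates 2 and 3, and HSPA9, the mitochondrial HSP70, had 1 each in replicates 1 and 2.

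Genes of protein turnover included SKP1, an adaptor of SCF ubiquitin ligases, and UBB, which encodes ubiquitin as repeats in tandem. SKP1 had 240, 210 and 165 bases at an edit fraction of 1.46%, 1.74% and 1.35%. UBB had one and the same stretch, chr17:16285892-16286041 on the plus strand in exon segment 4, in each replicate. Its edit fraction of 0.664%, 0.682% and 0.657% varied least of the 32 loci, at a depth of 1139, 1024 and 874 reads. Because the repeats are alike, the placing of its reads is uncertain.

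H3F3B, now named H3-3B, encodes the replication-independent histone H3.3. Its locus at chr17:73774316-73774645 on the minus strand had 150, 330 and 285 bases. The edit fraction was 1.28%, 0.951% and 0.770%, over 54, 85 and 45 edited reads. The C share was low, at 12.7%, 13.6% and 13.0%. NPM1, a nucleolar chaperone of ribosome assembly, was also poor in C, with 11.3%, 13.6% and 12.3% over 150, 330 and 195 bases.

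The C-richest of the 32 loci was POLR2A, with 45.3%, 51.8% and 46.1% C over 150, 195 and 360 bases at chr17:7417151-7417510. Its edit fraction was 0.715%, 0.343% and 0.663%, over 10, 21 and 23 edited reads. The C-poorest was EIF4A2, an RNA helicase of translation initiation whose introns host small nucleolar RNAs. Its 150 bases at chr3:186507258-186507407 carried the labels of SNORA4, SNORA63, SNORA81 and SNORD2 as well, and held 9.33% C, or 14 bases. The edit fraction there was nevertheless among the 3 highest, at 3.00%, 1.94% and 3.30%. Over the 32 loci, Spearman's rho of C share and edit fraction was weak, at -0.278, -0.262 and -0.203 in replicates 1, 2 and 3, which share the loci.

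Other loci of the 32 had edit fractions between the extremes. The uncharacterised AC013394.2 on chromosome 15 had 195, 210 and 270 bases, and NUTF2, which carries RAN into the nucleus, 270, 165 and 255. LAPTM4B, a lysosomal membrane protein, had 180, 180 and 210 bases, and HSBP1, which binds heat shock factor, 195, 150 and 225. SF3B14, now SF3B6, a subunit of the SF3B complex of the spliceosome, had 150, 252 and 150 bases at an edit fraction of 0.521%, 0.674% and 0.593%. The RP11-466H18.1 locus had 260, 290 and 360 bases at 0.727%, 0.834% and 0.699%. Its long cluster carried an exon label of RP11-466H18.1 in each replicate, and PLEKHA7 appeared only as an intron label in replicate 3.

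Some of the longest clusters were not long in every replicate. THAP9-AS1, an antisense RNA, had 465 bases in replicate 2 at a depth of 60.9, PITHD1 had 405 bases in replicate 1 at 65.3 and XBP1, a transcription factor of the unfolded protein response, 345 bases in replicate 1 at 265. Their edit fractions were 0.992%, 1.09% and 0.486%. Each was found in all 3 replicates, but clusters of both other replicates covered only 135, 15 and 75 of their bases.

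**Figure D5:**
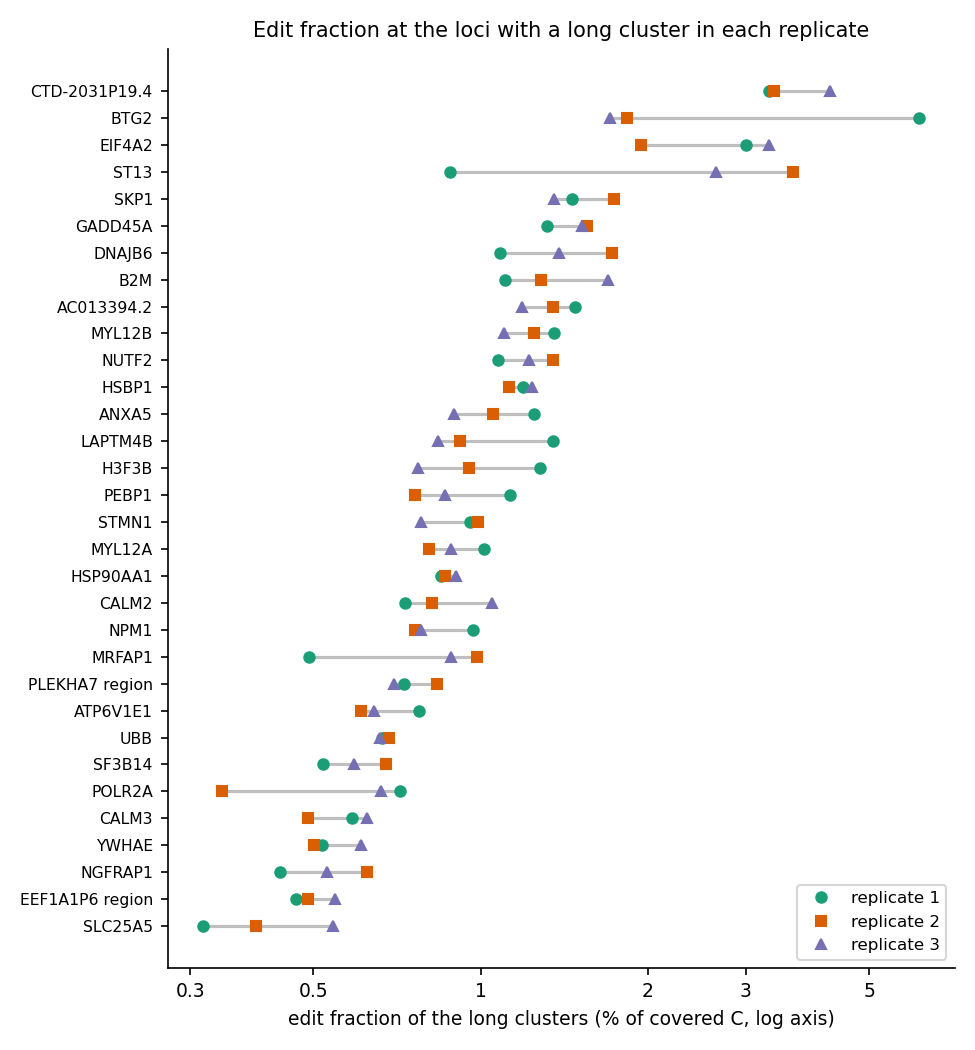
Edit fraction of the long clusters, in percent of covered C on a log axis, at the 32 loci with a long cluster in each replicate, ordered by the mean over replicates; symbols are replicates and grey lines join the lowest and highest. Means ran from 0.417% at SLC25A5 to 3.64% at CTD-2031P19.4, and BTG2 and ST13 had the widest spread.

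The edit fraction was highest at CTD-2031P19.4, an unannotated clone-named gene on chromosome 5, with 3.30%, 3.37% and 4.25%, followed by BTG2, an antiproliferative gene that p53 induces, and EIF4A2. The rank of BTG2 rests on which stretch was long. Its long clusters had 6.15% in replicate 1, at a depth of 15.4 reads, and 1.84% and 1.71% in replicates 2 and 3, at 31.7 and 25.7, and shared no base over the 3. In replicate 1 the stretch ran from 315 to 510 bases from the locus start. Within it replicates 2 and 3 had shorter clusters at 6.25% and 16.2%, while the clusters of replicate 1 at lower positions had 1.46% and 1.64%. At CTD-2031P19.4 in replicate 1, reads covered only 40.2% of the C bases that its mean depth implies, so its depth of 99.7 overstates the reads behind the fraction.

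The lowest edit fractions were in SLC25A5, which encodes an ADP/ATP carrier of mitochondria, at 0.317%, 0.394% and 0.541%, and in the EEF1A1P6 locus and NGFRAP1. NGFRAP1, now BEX3, had 0.435%, 0.623% and 0.528%. EEF1A1P6 is a pseudogene of the elongation factor gene EEF1A1, inside introns of STEAP1B and of other genes on chromosome 7, and had 0.465%, 0.488% and 0.547% over 319, 214 and 274 bases. Its depth of 2313, 2190 and 1303 reads was the greatest of the 32 loci. EEF1A1 itself, an abundant mRNA, had 0, 2 and 3 clusters of at most 60 bases, and how reads of such near-identical copies were divided is uncertain.

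Over the 32 loci, the order of edit fraction was more alike between replicates than the order of length. Spearman's rho of edit fraction was 0.780 between replicates 1 and 2, 0.777 between 1 and 3 and 0.927 between 2 and 3. For the length of the longest cluster it was 0.354, 0.457 and 0.659. For depth it was 0.940, 0.923 and 0.970. These coefficients describe loci that were chosen for being long in each replicate, and depth enters the edit fraction. The coefficient of variation over replicates had a median of 13.4% for edit fraction, 19.7% for total length and 25% for depth.

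Long clusters lay almost wholly in exons. An intron label occurred in 3, 2 and 2 of them, or 0.920% ± 0.214, against 2.14% ± 0.322 of shorter clusters. These were the EEF1A1P6 locus in each replicate, the RP11-466H18.1 locus and AKIRIN2 in replicates 3 and 2, and RP11-673C5.1 and RPL30 in replicate 1. The intronic cluster of RPL30, a ribosomal protein gene, had a mean depth of 3710 but only 380 covered C bases over 31 C, which is 0.330% of what that depth implies. No long cluster came from mitochondrial RNA.

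On the minus strand, long clusters lay more often than shorter ones in the 3′-most exon segment. Segment numbers rise with position on both strands, in 7540 of 7540 steps between segments, or 100%, so on the minus strand exon segment 0 is the 3′-most and on the plus strand the 5′-most. Of long exonic clusters on the minus strand with 1 label, 107 of 130, 118 of 141 and 70 of 84 lay in segment 0, which is 82.3%, 83.7% and 83.3%. Of shorter ones, 64.3%, 59.3% and 61.3% did. On the plus strand, segment 0 held 5.83%, 3.70% and 8.18% of long and 3.89%, 4.07% and 4.29% of shorter clusters, so long clusters were higher in replicates 1 and 3 and lower in replicate 2. The 3′-most segment of plus-strand genes was not analysed here, since the labels give no total number of segments. Genes with 1 segment add to both strands. In minus-strand genes that had clusters in another segment too, the share was 77.1% ± 1.73 for long and 45.4% ± 2.88 for shorter clusters, and among clusters 50 or more reads deep 81.0% ± 1.77 and 61.3% ± 3.52. This comparison was added after the data were seen and was not tested, and segments were not matched to coding or untranslated sequence. A cluster with 1 label lies in 1 segment, so a segment under 150 bases cannot hold a long one. The lengths of segments were not analysed here, so how far the rule itself set the difference was not tested.

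The long clusters carried 580 gene names of 9904 with any cluster, of which 413 had 1 long cluster and 47 had one in each replicate. The most, 6, fell in BTG2 and in HSP90AA1, 2 in each replicate. B2M, EIF4A2 and MRFAP1, which encodes a partner of MORF4-family chromatin proteins, had 5 each. ATP6V1E1, a subunit of the proton pump of acidic organelles, CCNG1, H3F3B, MTPN with the overlapping LUZP6, PEBP1, POLR2A, RAC1, STMN1, YWHAE and YWHAZ had 4 each. MTPN and YWHAZ had 3 of theirs in replicate 1 and none in replicate 3.

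The gene lists were set by name patterns, which miss some genes of each kind, and the counts are those of the lists. Summed over replicates, they differed in how many of their clusters were long, beside 1.88% of all clusters at a median depth of 23.8. Among histone genes 12 of 112 clusters, or 10.7%, were long, in H3F3B, H1F0, H3F3AP4 and HIST1H2BK among others. H3F3AP4, with 2 of the 12, is by its name a pseudogene of H3F3A, and how reads of such copies were divided is uncertain. The list of HSP90 and HSP70 chaperones had 10 of 126, or 7.94%, but 6 of these were in HSP90AA1, and the other genes had 4 of 115, or 3.48%. Without H3F3B the histone list kept 8 of 90, or 8.89%. The order of these lists was not the same in each replicate, with 10.5% for the chaperones and 7.5% for histones in replicate 2. SR splicing factors had 11 of 219, or 5.02%, led by SRSF7 and SRSF2, and actins and actin-binding genes had 5 of 110, or 4.55%, in TMSB4X, CFL1, MYL6 and PFN1. The actin list left out PLS3, MYL12A and MYL12B, with 3 long clusters each, PFN2 with 2 and DSTN with 1. For hnRNP genes, which bind pre-mRNA, it was 15 of 343, or 4.37%, but 8 and 6 of these were in replicates 1 and 2 and 1 in replicate 3. All 5 lists had median cluster depths above that of all clusters, from 81.7 in the SR factors to 136 in the actin group.

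Other lists had few or none. Tubulins had 0 of 37 long clusters at a median depth of 38.6, giant cytoskeletal and ubiquitin ligase genes 0 of 72 at 17.3, and mitochondrially encoded genes 0 of 16 at 696. With 3 long clusters taken as what a count of 0 allows, the shares could be up to 8.11%, 4.17% and 18.8%. These limits treat clusters as independent. The clusters came from 14, 14 and 8 genes and were pooled over replicates, so the limits may be too low. The list of chromatin modifiers had 1 of 391, in KDM3A, at a depth of 16.3, and left out HDAC2 and KAT7 with 1 each. ZNF genes had 7 of 855 at 11.8. The list of mitosis and kinesin genes had 1 of 244, in KIF2C, at 24.1, but it left out NUSAP1 and PRC1 with 3 long clusters each, MLF1IP (now CENPU) with 2 and BUB1B and MIS12 with 1 each, so its low count does not describe mitosis genes at large. These genes were looked up after their values were seen. Depth did not order all lists, since ribosomal protein genes had 6 of 360, or 1.67%, at a median depth of 576, and CCT chaperonin subunits 1 of 86 at 226. Of the 6, 2 were in RPL7L1, which the name pattern took in, and 1 was the intronic cluster of RPL30. The lengths of exon segments, which limit a cluster with 1 label, were not compared between lists. Translation factors had 15 of 444, or 3.38%, 5 of them in EIF4A2 and 4 in 2 pseudogenes of EEF1A1, EEF1A1P6 and EEF1A1P13. The list of spliceosome core genes had 2 of 256, both in SF3B4, and left out SF3B14 with 3 and NHP2L1 (now SNU13) with 1. Solute carriers had 9 of 590, glycolysis enzymes 1 of 76, abundant long noncoding RNAs 2 of 133, both in LINC00657 (now NORAD), and the nucleolar list 6 of 343, which by its name pattern took in WDR26 and WDR47.

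RBFOX2, to which reads of the endogenous transcript and of the fusion construct both map, had 17, 16 and 16 clusters and no long one. Its longest had 146 bases in each replicate, at chr22:36177648-36177793 in exon segment 24, just under the limit. Its edit fraction was 1.02%, 1.36% and 1.19% at depths of 5108, 7095 and 3788 reads. These sources cannot be told apart here. Whether exon segment 24 is long enough to hold a long cluster was not analysed.

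Some long clusters stood out after their values were seen. RP11-83J16.1, a clone-named gene on chromosome 15, had the same 150 bases long in replicates 2 and 3, with an edit fraction of 10.7% and 9.56%. There 68.7% and 70.5% of the reads were edited, 46 and 55 reads in number, whereas the median long cluster had 6.54% ± 0.446 (SD, n = 3). The highest single value, 11.3% in FAM200A in replicate 2, came from 5 edited reads at a depth of 7.71 and was found in no other replicate. The lowest, 0.308% in H3F3A in replicate 2, came from 44 edited reads at a depth of 544.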

How the data were processed

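FLARE clusters were deposited separately for each of 3 replicates. The authors called C-to-U sites with SAILOR after common SNPs were removed, compared windows of 30 bases against zero-truncated Poisson rates for exons, introns and depth classes, and merged windows past an adjusted p of 0.1 within 15 bases. The submitters' processing notes name STAR and hg19. Per the file headers, the deposited counts (of C bases, covered C bases, edits, reads and edited reads) are whole numbers without scaling. The deposited fractions are edited bases over covered C bases and edited reads over reads. Mean read depth, as the authors deposited it, is a signal of coverage without scaling. The score the authors gave each cluster runs from 0 to 1. Reads in clusters numbered 1637592, 1731304 and 1104249, and the depth of the libraries was not analysed here.

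Length was taken as end minus start, and starts were read as counted from 0 and are printed from 1. Segments were counted over clusters with 1 label. Clusters were matched on the same strand by at least 1 shared base in Python 3.11.15 (SciPy 1.17.1, pandas 2.3.3, NumPy 2.4.6; figures by matplotlib 3.10.9). Recurrence, which uses replicates outside the choice of a cluster, was compared by the exact paired permutation test over replicates. Its p-values measure only the spread between these samples. The recurrence values of the replicates share places and are not independent, which the test does not allow for. Other differences between long and shorter clusters are descriptions. Windows that did not pass were not analysed here. The matching code was checked on simulated clusters.

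Named are the 5 longest clusters per replicate, the recurrent loci (by rule the 20 longest and the extremes, here all 32), the genes with the most long clusters, intronic long clusters, RBFOX2 and up to 4 genes per family. Others are said to have been singled out later. Gene lists were set by name patterns. Members and lists were chosen with earlier results of these data known. Of the 580 gene names, 500 were symbols in a RefSeq table of GRCh38.p14 and 44 matched an older name, and no position was taken from it.

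Alternatives were leaving out each replicate, a minimum score of 0.99, a minimum length of 180 bases and a depth of at least 50. Further ones were means for medians, an overlap of 50% and the central 30 bases of the cluster described. Clusters with 1 gene name and the alternatives for segments were added after seeing the data.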

Additional observations from a re-analysis of the deposited data

How the results depend on the processing

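Of 59 values under alternatives, 33 moved by less than the SD between replicates (for the number of clusters, by less than 1.5 times). The long minus shorter difference kept its sign except in 1 case, the edit fraction at a depth of at least 50. There, the median of long clusters was 0.864% (shorter 0.779%), with 20.3 edited bases per 100 bases, a depth of 124, 83.4% found in all 3 replicates, 42.0% of bases covered in both others and 81.0% of minus-strand clusters in exon segment 0. With a minimum length of 180 bases, 122 long clusters per replicate were left, with 17.1 edited bases per 100 bases, an edit fraction of 1.03%, a depth of 92.1, 77.4% found and 36.2% of bases covered. Means in place of medians gave a C share of 18.8%, 21.2 edited bases per 100 bases, an edit fraction of 1.64% and a depth of 136. The share found was 53.5% at a minimum score of 0.99, 19.9% with an overlap of 50% of both and 37.1% for the central 30 bases, and 77.1% of minus-strand clusters lay in segment 0 in genes with another clustered segment. Leaving out 1 replicate asks for 1 other replicate in place of 2, which raised the share found to 75.2% to 79.7% and the bases covered to 45.5% to 45.8%. The other results stayed within the SD when 1 replicate was left out. Restricting to clusters with 1 gene name moved none of 7 results beyond the SD. Long and shorter clusters were compared within each replicate throughout, and there was no second condition to pair.

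Depth limits the calls: long clusters with few reads rest on as few as 2 edited reads. Windows under the threshold were not analysed here, so a stretch without a cluster in a replicate is not shown to lack edits.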
